A study of Mus musculus with 10 samples.

Results

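Chromatin modifiers and remodelers were examined in newborn mouse forebrain, with and without the neuronal RNA-binding proteins Elavl3 and Elavl4. The genes were chosen by name alone. A gene entered if a row of the expression table carried its symbol and no other, and if that symbol began with Hdac, Sirt, Kdm, Kmt, Setd, Smarc, Dnmt, Prmt, Arid or Ezh, or with Chd, Tet, Kat or Brd followed by a digit. Kdm5c, Kdm5d and Kdm6a were left out. The rule found 75 genes in 14 name families, among 13534 genes named by single-symbol rows, and the row with the highest mean over all arrays stood for each gene. The RefSeq gene table holds 119 protein-coding genes that meet the rule, so most families were covered only in part. Only 1 of 3 Tet, 3 of 8 Prmt and 4 of 10 Setd genes were among the 75.

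Chromatin carries chemical marks that are added, removed and read by separate proteins. Acetyltransferases (Kat) loosen histones, deacetylases (Hdac, Sirt) reverse this, and bromodomain proteins (Brd) bind the acetylated tails. Methyltransferases (Kmt, Setd, Ezh, Prmt) and demethylases (Kdm) set histone methylation, Dnmt and Tet enzymes set and oxidise DNA methylation, and the Smarc, Arid and Chd proteins belong to machines that move nucleosomes. In the developing forebrain several of them are known to exchange subunits or paralogs as progenitors become neurons.

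The wild-type group held 5 animals, and the double knockout group held 5 animals of genotype Elavl3-/-;Elavl4-/-. All were pups at postnatal day 0 with C57BL/6 and CD-1 in a mixed strain, and total RNA of each dissected forebrain was hybridised to 1 mouse exon array. The series is described as littermate pairs, but the labels do not say which animals are littermates, and replicate numbers below only name an animal. Whole forebrain mixes many cell types, so fewer cells of a type and less RNA per cell cannot be told apart. Values are log2 expression values, and a difference is the double knockout mean minus the wild-type mean, in log2 units.

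The targeted genes were checked first. Elavl3 ranged from 10.52 to 11.39 in wild-type and from 5.53 to 6.94 in double knockout animals, a difference of -5.08 (limma's adjusted p = 3.15e-05). Elavl4 ranged from 7.42 to 7.69 and from 5.88 to 6.49, a difference of -1.32 (adjusted p = 0.0130), although this call was lost in 7 of the 10 fits that left out 1 array, with a block of animals with neighbouring numbers (adjusted p = 0.0982) and with the level of Xist as covariate (adjusted p = 0.0522). Forebrain markers were present, with Bcl11b at 10.70 to 11.08 and Lhx2 at 8.90 to 9.31 over all arrays, and the 7 of 9 measured forebrain markers had mean levels of 6.42 to 10.95. The 6 of 12 measured markers of hindbrain and spinal cord had mean levels from 3.73 for Hoxa2 to 7.16 for Gbx2, a range that overlaps that of the forebrain markers. Wild-type replicate 4 correlated with the other arrays at only 0.933 to 0.946 over all probe sets, and it bears on many results below.

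No chromatin gene passed the test. In limma's fit over all 65529 probe sets 0 of the 75 genes had an adjusted p under 0.05, with 0.0148% of all named genes and 0.00763% of all probe sets called, and the lowest adjusted p among the 75 was 0.839. At an unadjusted p under 0.05 the count was 0 of 75, against 2.14% of all named genes. In a fit of single-symbol probe sets only, Kdm5a and Prmt3 had such a p, which is 2 of 75 against 5.19% of all named genes, and 0 passed after adjustment. The unmoderated unequal-variance test called 0 as well, with 2 of 75 at an unadjusted p under 0.05 against 5% of all named genes. In 0 of the 75 did the values of the groups separate without overlap, against 0.968% of all named genes, of which 0.214% had the double knockout higher and 0.754% lower.

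In the row that stood for each gene, the data bound the size of any difference more tightly than the lack of calls does. Differences ran from -0.18 for Kdm1b to 0.27 for Smarce1, with a median size of 0.076 regardless of sign. The 95% interval stayed within 1.5-fold of no change for 71 of the 75 genes, against 91.1% of all named genes. The 4 exceptions were Smarce1, Kdm7a, Arid4a and Kat2b, and for all 75 the interval lay within 2-fold. Some genes within 1.5-fold had a dimmer row whose interval passed it. These rows belonged to Setd1b (-0.61 to -0.06), Brd2 (-0.71 to 0.10) and Hdac1 (-0.15 to 0.61, a row whose gene is uncertain). Kat2b, with Kdm4c and Brd8dc, was dimmer than the median of all probe sets (5.14), where RMA values respond weakly to a change in RNA.

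**Figure D1:**
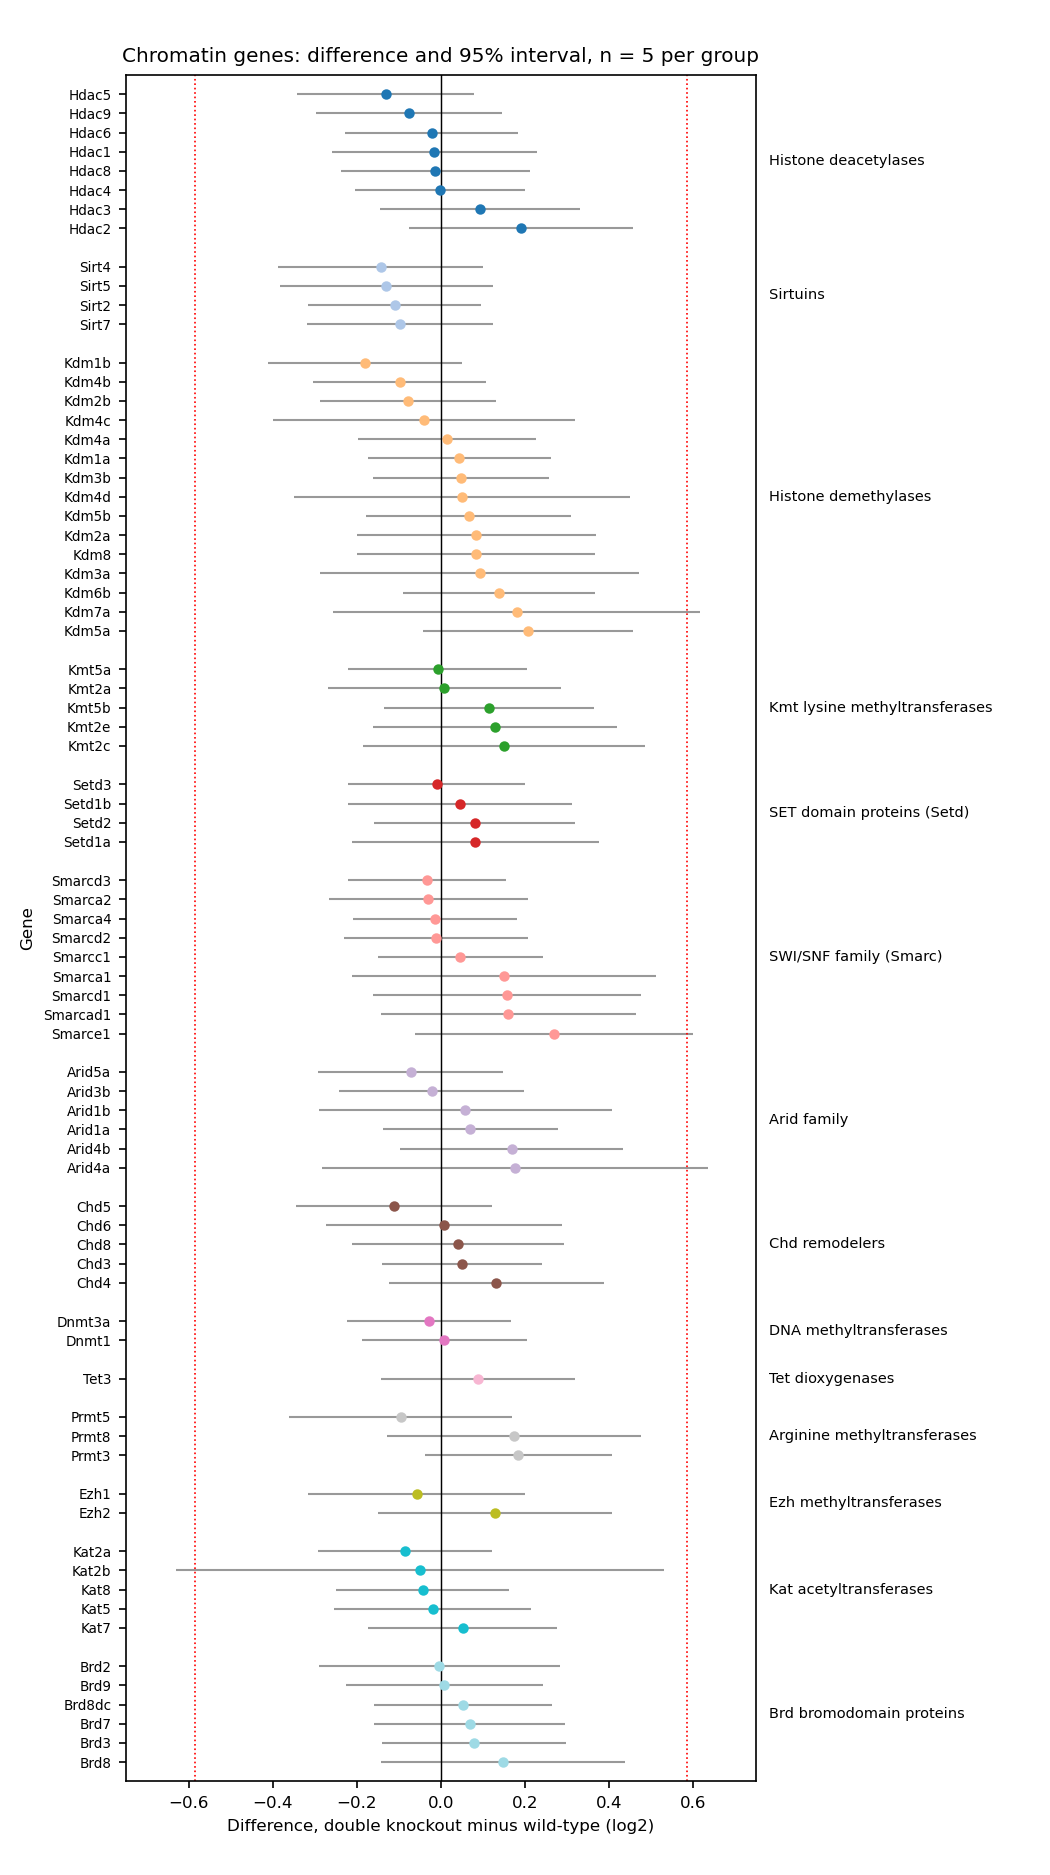
Difference of each of the 75 chromatin genes (points, log2, double knockout minus wild-type) with its 95% interval (bars), grouped by name family. Dotted lines mark 1.5-fold, and only Smarce1, Kdm7a, Arid4a and Kat2b have an interval that crosses one of them.

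As a group the 75 genes lay slightly above 0. The median difference was 0.044, and 44 genes lay above 0 and 31 below, whereas over all named genes the median was -0.03 and 39.1% lay above 0. Without wild-type replicate 4 the median of the 75 genes was 0 and 37 of them lay above 0, beside a median of -0.027 and 38.1% above 0 over all named genes. The median was 0.009 after quantile normalization, 0.011 after cyclic loess and 0.013 with array weights. Over all named genes these medians were -0.051, -0.037 and -0.027. Leaving out double knockout replicate 4 gave 0.010, beside -0.046 over all named genes. Leaving out any other array except wild-type replicate 4 gave 0.032 to 0.051, beside -0.038 to -0.02 over all named genes. The median of the 75 genes thus stayed above that of all named genes in each of these fits.

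**Figure D2:**
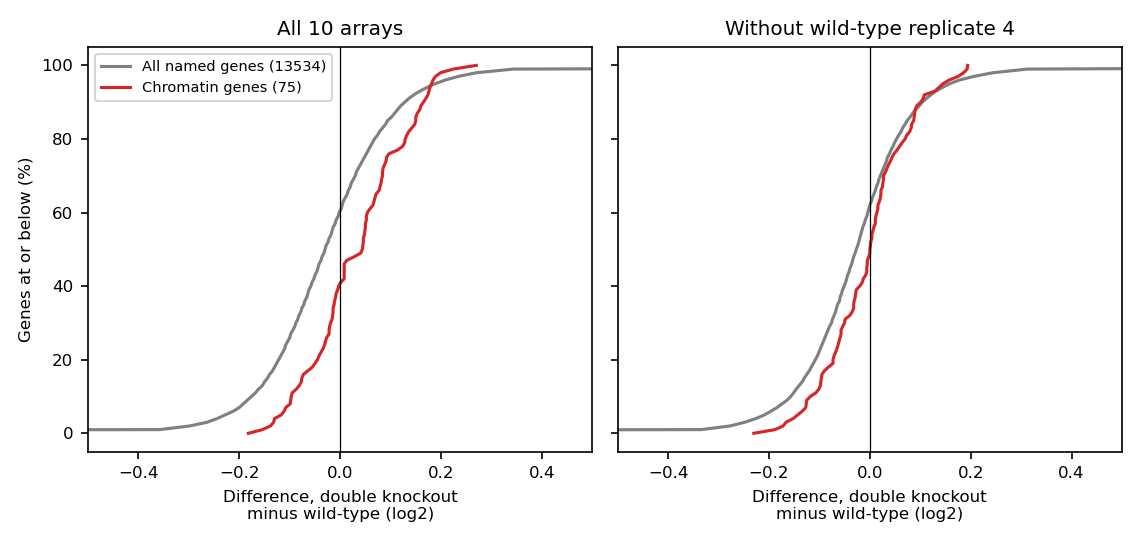
Cumulative share of genes (vertical axis, percent) at or below each difference (horizontal axis, log2), for the 75 chromatin genes and all 13534 named genes, over all 10 arrays (left) and without wild-type replicate 4 (right). The chromatin curve crosses the midpoint at 0.044 on the left and at 0 on the right.

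Promoter sequence was read for the genes with a single promoter in the reference table, a feature that the name rule did not use. The RefSeq promoter table (GRCm38.p6) held promoters for 61 of the 75 genes, and exactly 1 for 41 of them. It held exactly 1 for 22862 genes in all, which were not limited to the named genes of the array. The 250 bases before the start were read in each. The median GC content of the 41 genes was 61.6% against 52.0% over all 22862 genes. The 41 genes held a median of 17 CG pairs against 5, with a range from 4 in Smarcd2 to 56 in Kdm7a. The Sp1 motif GGGCGG, on either strand, was found in 29 of 41 (70.7%) against 32.4% of all. The NF-Y motif CCAAT was found in 20 of 41 (48.8%) against 34.7%. The remaining motifs were rarer, the E2F motif TTTNNCGC in 4 of 41 (9.76% against 4.44%), the ETS motif CCGGAAG in 5 (12.2% against 7.09%), the NRF1 motif in 3 (7.32% against 3.82%) and TATAAA in 2 (4.88% against 13.6%). Each motif was searched by itself on both strands, so that a CG-rich stretch can hold several of them, and a match is a description of the sequence and no binding site.

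Of these 41 genes Kdm1b had the lowest difference and Hdac2 the highest, and Ezh2 is the catalytic subunit of Polycomb repression in neural progenitors, so their promoters are shown. They lie at chr13:47043249-47043498 on the plus strand, chr10:36974294-36974543 on the plus strand and chr6:47595031-47595280 on the minus strand, from RefSeq, GRCm38.p6, written 5′ to 3′ and ending just before the start. Capitals mark the motif matches.
Kdm1b: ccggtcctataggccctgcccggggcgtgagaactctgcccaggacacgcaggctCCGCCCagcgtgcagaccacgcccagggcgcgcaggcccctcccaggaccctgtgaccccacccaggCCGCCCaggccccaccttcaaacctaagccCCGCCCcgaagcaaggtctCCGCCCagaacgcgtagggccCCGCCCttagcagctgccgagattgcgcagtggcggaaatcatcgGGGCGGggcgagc
Hdac2: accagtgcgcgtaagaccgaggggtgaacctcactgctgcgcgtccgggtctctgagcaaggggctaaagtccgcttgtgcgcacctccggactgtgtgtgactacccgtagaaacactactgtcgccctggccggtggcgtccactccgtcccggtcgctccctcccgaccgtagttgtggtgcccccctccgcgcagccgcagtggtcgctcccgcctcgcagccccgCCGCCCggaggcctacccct
Ezh2: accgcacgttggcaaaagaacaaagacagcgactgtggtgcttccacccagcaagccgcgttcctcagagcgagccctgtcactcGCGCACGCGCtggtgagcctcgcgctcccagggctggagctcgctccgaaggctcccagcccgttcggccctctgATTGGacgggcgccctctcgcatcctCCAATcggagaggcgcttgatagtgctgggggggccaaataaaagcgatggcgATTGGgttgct
The Kdm1b window held 6 Sp1 matches and 22 CG pairs, the Hdac2 window 1 Sp1 match and 27 CG pairs, and the Ezh2 window 3 NF-Y matches, 1 NRF1 match and 23 CG pairs.

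Histone deacetylases had 2 of 8 genes above 0 and a median of -0.015. Hdac2, a class I deacetylase of the Sin3, NuRD and CoREST complexes, was at 10.87, 10.80, 11, 10.47 and 10.89 in wild-type replicates 1 to 5 and at 11.20, 10.94, 10.87, 11 and 10.97 in the double knockout. The groups overlapped, and wild-type replicate 4 was the lowest array. The difference was 0.19 (SE 0.121, 95% interval -0.08 to 0.46, limma's adjusted p = 0.850), and 0.11 without that array. Its close paralog Hdac1 was at -0.02 and Hdac3, the deacetylase of the NCoR complex, at 0.09.

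Class IIa deacetylases shuttle between nucleus and cytoplasm in response to neuronal activity. Hdac5 was at 8.99, 8.87, 8.89, 8.92 and 9.07 in wild-type and at 8.90, 8.86, 8.83, 8.64 and 8.85 in double knockout animals. Its values overlapped only because 1 double knockout animal reached the wild-type range, and the difference was -0.13 (SE 0.0959, interval -0.34 to 0.08, adjusted p = 0.861, exact permutation p = 0.0317 before adjustment). Hdac4 was at -0.002 and Hdac9 at -0.08. Hdac9 spread over 7.59 to 7.92 in wild-type animals and over only 7.69 to 7.74 in the double knockout.

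Of the 7 sirtuins, the deacylases that depend on NAD, 4 were measured, and these 4 all lay below 0. Their median was -0.12, and -0.11 without wild-type replicate 4. Over all named genes 39.1% lay above 0, and a group of 4 on the lower side is no result by itself. Sirt2, a mostly cytoplasmic deacetylase of tubulin, was at 8.59, 8.58, 8.84, 8.59 and 8.67 in wild-type and at 8.49, 8.55, 8.50, 8.59 and 8.59 in the double knockout. All double knockout values lay below or at the lower edge of the wild-type range, and 2 of them, at 8.59, equalled wild-type values. The difference was -0.11 (SE 0.0939, interval -0.32 to 0.10, adjusted p = 0.877). Sirt4, a mitochondrial sirtuin, was at -0.14 and Sirt7, of the nucleolus, at -0.10.

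Acetyltransferases had 1 of 5 genes above 0 and a median of -0.04, which was 0 without wild-type replicate 4. Kat2a, the catalytic subunit of the SAGA complex, had a mean of 8.79 ± 0.11 in the wild-type group and of 8.70 ± 0.07 after double knockout (SD, n = 5 each). Its difference was -0.09 (interval -0.29 to 0.12, adjusted p = 0.897). Kat5, the acetyltransferase of the TIP60 complex, was at -0.02 and Kat7, of the MYST family, at 0.05. Kat2b, the paralog of Kat2a, was read at 3.54 to 4.94 in wild-type and at 3.83 to 4.71 in double knockout animals. Its residual SD of 0.47 was the largest among the 75 genes, and its difference of -0.05 had an interval from -0.63 to 0.53.

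Bromodomain proteins had 5 of 6 genes above 0 and a median of 0.06, which was 0.012 without wild-type replicate 4. Brd2 and Brd3, readers of the BET family that recruit the transcription machinery to acetylated histones, were at -0.004 and 0.08. Brd2 ranged from 8.51 to 8.71 in wild-type and from 8.34 to 9.03 in the double knockout. Brd8, a subunit of the TIP60 complex, was at 8.22, 8.04, 8.07, 7.76 and 7.81 in wild-type and at 7.83, 8.14, 8.33, 8.26 and 8.08 in the double knockout. The difference of 0.15 (SE 0.132, interval -0.14 to 0.44, adjusted p = 0.877) was smaller than the spread of either group.

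Kmt and Setd methyltransferases had 4 of 5 and 3 of 4 genes above 0, with medians of 0.11 and 0.06, and 0.013 and 0.011 without wild-type replicate 4. Kmt2c, an MLL-family enzyme of enhancers, was at 9.32, 9.21, 9.17, 8.49 and 9.01 in wild-type and at 9.19, 9.25, 9.31, 9.10 and 9.10 in the double knockout. Wild-type replicate 4 lay 0.69 below the mean of the other wild-type arrays, and the difference of 0.15 (SE 0.153, adjusted p = 0.889) was 0.013 without it. Kmt2a, another MLL-family enzyme, was at 0.008 and Kmt5a, which methylates histone H4, at -0.008. Setd1a and Setd1b, the catalytic subunits of COMPASS complexes, were at 0.08 and 0.05, Setd2, which methylates histone H3 along transcribed genes, at 0.08, and Setd3, which methylates actin, at -0.01.

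The Polycomb enzymes showed opposite signs without a call. Ezh2, which lays the repressive methyl mark in dividing progenitors, was at 8.14, 8.10, 8.29, 7.92 and 7.94 in wild-type and at 8.42, 7.95, 8.03, 8.31 and 8.32 in the double knockout. Of the double knockout animals 3 lay above every wild-type value and 2 lay within the wild-type range. The difference was 0.13 (SE 0.127, interval -0.15 to 0.41, adjusted p = 0.886). Ezh1, the paralog that prevails in postmitotic cells, was at -0.06, and -0.15 without wild-type replicate 4. Dividing cells, the main source of Ezh2, were represented by 4 measured markers of 10 listed, whose mean level ran from 7.53 to 7.75 in wild-type and from 7.41 to 7.71 in the double knockout, and their part in the value of Ezh2 was not tested.

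Arginine methyltransferases had 2 of 3 genes above 0. Prmt3, a cytosolic enzyme that methylates a ribosomal protein, was at 8.41, 8.26, 8.21, 8.01 and 8.16 in wild-type and at 8.40, 8.34, 8.36, 8.49 and 8.38 in double knockout animals. Only wild-type replicate 1 reached the double knockout range. The difference was 0.18 (SE 0.101, interval -0.04 to 0.41, adjusted p = 0.839, exact permutation p = 0.0397 before adjustment), and 0.13 without wild-type replicate 4. Prmt8, a membrane-bound enzyme of neurons, was at 0.17 and at 0.06 without that array, which read 7.88 while the other wild-type arrays read 8.36 to 8.56. Prmt5, which makes symmetric dimethylarginine, was at -0.10.

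Histone demethylases were the largest family, with 11 of 15 genes above 0, a median of 0.05, and 7 of 15 above 0 with a median of 0 without wild-type replicate 4. Kdm5a, which removes the methyl mark of active promoters, was at 8.63, 8.52, 8.73, 8.52 and 8.49 in wild-type and at 8.77, 8.52, 8.74, 9.0 and 8.90 in the double knockout. Of the double knockout animals 4 lay above all wild-type values, and double knockout replicate 2 did not. The difference was 0.21 (SE 0.114, interval -0.04 to 0.46, adjusted p = 0.839), and it stayed at 0.19 without wild-type replicate 4. Its paralog Kdm5b was at 0.07, and at 0 without that array.

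Kdm1b had the lowest difference of the 75 genes. This demethylase, known for its role in oocytes, was at 8.77, 8.67, 8.61, 8.46 and 8.76 in wild-type and at 8.61, 8.46, 8.52, 8.29 and 8.48 in double knockout animals. The double knockout values lay lower on the whole, with overlap at 8.46 to 8.61. The difference was -0.18 (SE 0.105, interval -0.41 to 0.05, adjusted p = 0.842), and -0.23 without wild-type replicate 4. Its paralog Kdm1a, which acts with CoREST in neuronal gene silencing, was at 0.04. Kdm6b, which removes the Polycomb mark, was at 0.14, Kdm4a at 0.01 and Kdm3a at 0.09.

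The DNA methyltransferases varied little between animals, with residual SDs of 0.0677 for Dnmt1 and 0.0631 for Dnmt3a against a median of 0.13 over the 75 genes. Dnmt1, which copies methylation after replication, was at 10.00, 9.93, 10.14, 9.95 and 9.99 in wild-type and at 10.06, 9.98, 9.94, 10.03 and 10.04 in the double knockout. The difference was 0.008 (SE 0.0898, interval -0.19 to 0.21, adjusted p = 0.993), and its sign turned under other normalizations. Dnmt3a, which methylates new sites in neurons, was at 9.31 ± 0.08 and 9.29 ± 0.04 (SD, n = 5 each), a difference of -0.03 with an interval from -0.22 to 0.17. Tet3, which oxidises methylated cytosine, was at 0.09 (interval -0.14 to 0.32, adjusted p = 0.904), and its double knockout values of 10.74 to 11.18 surrounded the wild-type values of 10.87 to 10.99.

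Among nucleosome remodelers the Smarc family had 5 of 9 genes above 0 and a median of 0.05. Smarca4, the ATPase of BAF complexes in progenitors and neurons, was at 10.70, 10.69, 10.72, 10.65 and 10.84 in wild-type and at 10.68, 10.73, 10.73, 10.62 and 10.77 in the double knockout, a difference of -0.01 (interval -0.21 to 0.18, adjusted p = 0.985). The alternative ATPase Smarca2 was at -0.03, and the core subunit Smarcc1 at 0.05. Of the interchangeable subunits, Smarcd1 was at 0.16 and Smarcd3 at -0.03. Smarcd3 had the smallest residual SD of the 75 genes, 0.0433, and its interval ran from -0.22 to 0.15.

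Smarce1, a DNA-binding subunit of BAF complexes, had the highest difference. It was at 7.62, 7.50, 7.32, 6.99 and 7.07 in wild-type and at 7.29, 7.70, 7.79, 7.59 and 7.48 in the double knockout. Wild-type replicates 4 and 5 were low and the remaining values overlapped. The difference was 0.27 (SE 0.151, interval -0.06 to 0.60, adjusted p = 0.840), or 1.21-fold, and 0.19 without wild-type replicate 4. Smarca1, an ATPase of the ISWI type, was at 0.15 and 0.016 without that array.

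The Arid family had 4 of 6 genes above 0 (median 0.06) and the Chd family 4 of 5 (median 0.04), and without wild-type replicate 4 these were 4 of 6 (median 0.04) and 2 of 5 (median -0.004). Arid1a and Arid1b, alternative subunits that target BAF complexes, were at 0.07 and 0.06. Arid1a read 9.25 in wild-type replicate 4 and 9.46 to 9.51 in the other wild-type arrays, whereas Arid1b read 8.02 in that array and 7.17 to 7.68 in the others. The paralogs thus stood on opposite sides of their group in the same animal. Arid4a, of the Sin3 complex, was at 0.18 with an interval from -0.28 to 0.64, and Arid5a, an RNA-binding protein, at -0.07.

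Chd3, Chd4 and Chd5 are the alternative ATPases of the NuRD complex. Chd3 was at 10.64, 10.50, 10.60, 10.58 and 10.65 in wild-type and at 10.63, 10.63, 10.61, 10.63 and 10.72 in the double knockout, a difference of 0.05 (interval -0.14 to 0.24, adjusted p = 0.937). Chd4, the form of progenitors, was at 0.13 and Chd5, the form of neurons, at -0.11. Chd5 read 9.62 in double knockout replicate 1 and 9.65 in wild-type replicate 4, below 9.80 to 10.06 in all other arrays, and was at -0.17 without wild-type replicate 4. Chd8, which binds active promoters, was at 0.04.

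**Figure D3:**
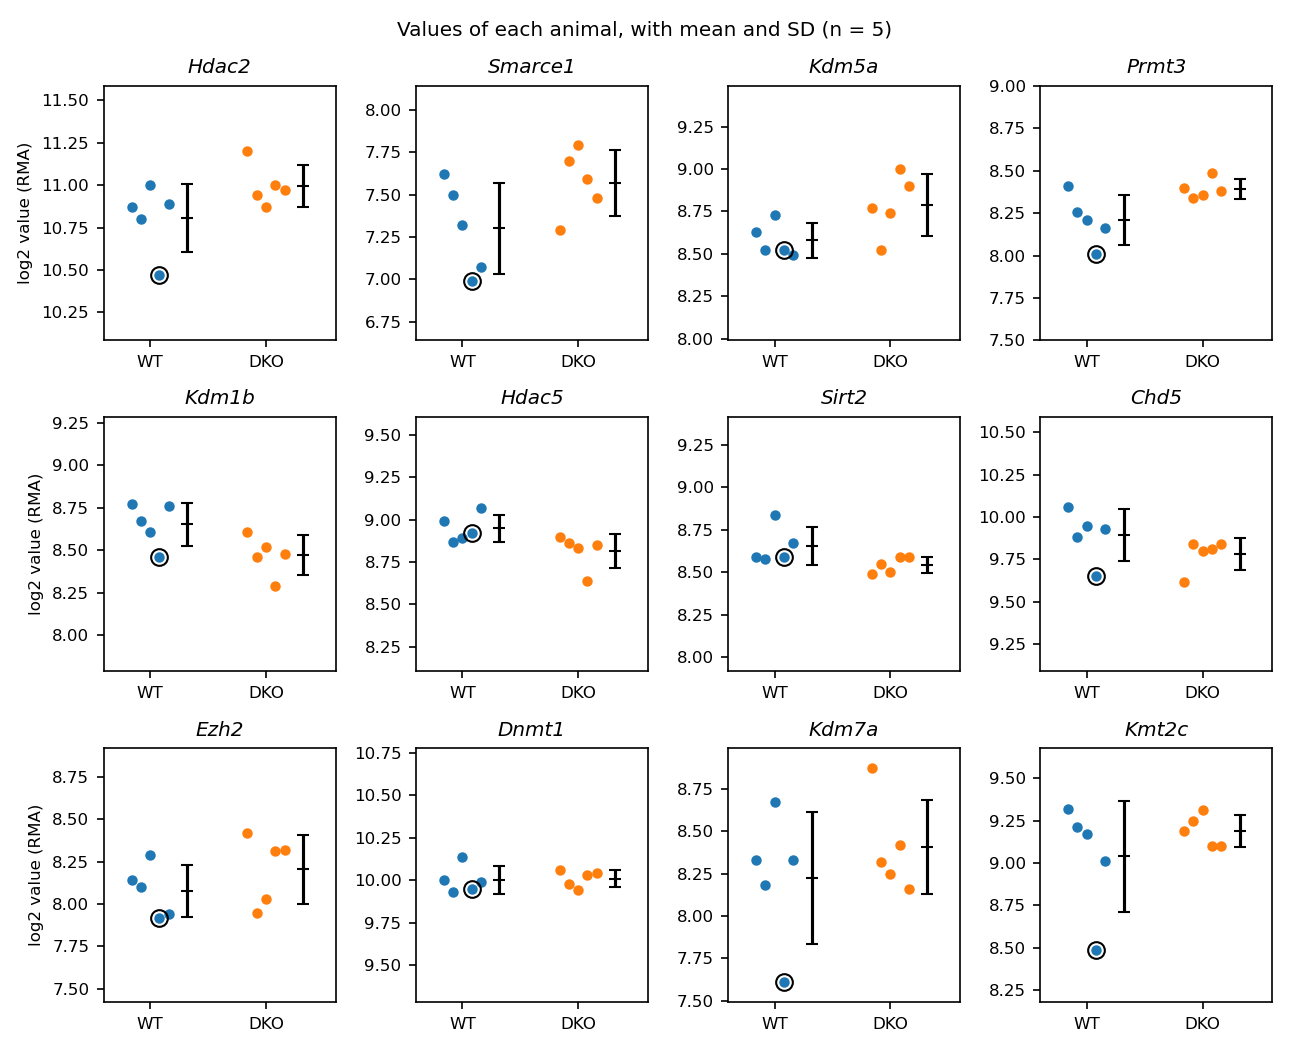
Log2 values of 12 chromatin genes in each animal (points), with the mean and SD of each group (bars, n = 5), wild-type (WT) and double knockout (DKO). Every panel spans the same 1.5 log2 units. The ringed point is wild-type replicate 4, which is the lowest point of Kmt2c at 8.49 and of Kdm7a at 7.61, and in every panel the groups overlap.

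For 64 of the 75 genes the difference between genotypes was no larger than the residual SD between animals. It was larger for the other 11 (14.7%, against 18.7% of all named genes), among them Smarce1, Kdm5a, Prmt3, Hdac2, Kdm1b, Hdac5 and Sirt2. The residual SD had a median of 0.13 over the 75 genes and 0.156 over all named genes. It was largest in Kat2b, Arid4a, Kdm7a, Kdm4d and Kdm3a, at 0.47, 0.359, 0.337, 0.302 and 0.282. Kdm7a, a demethylase with high levels in developing brain, was at 8.33, 8.18, 8.67, 7.61 and 8.33 in wild-type and at 8.87, 8.32, 8.25, 8.42 and 8.16 in the double knockout. Its difference of 0.18 (interval -0.26 to 0.62, adjusted p = 0.897) was 0.026 without wild-type replicate 4.

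Wild-type replicate 4 was the lowest wild-type array for 52 of the 75 genes (69.3%), against 31.0% of all named genes. The median chromatin gene lay 0.173 below the mean of the other wild-type arrays there, while the median over all named genes was -0.002. In this array 35 genes lay more than 0.2 below the others and 5 more than 0.2 above, among the latter Arid1b and Kat2b. Kat2b was dim, and its other row was at -0.265 there. The shift differed between bins of signal level. The 53 chromatin genes in the brightest of 4 equal bins of named genes (8.18 and above) had a median shift of -0.223, beside -0.175 over all 3384 named genes in that bin. Of these 53 genes 41 were lowest in that array, beside 55.9% of the named genes in the bin. In the dimmest bin (up to 5.10) named genes lay 0.143 above the other wild-type arrays, whereas the 3 chromatin genes there had a median shift of -0.085. In the next bin named genes were at 0.107 and the 5 chromatin genes at -0.133, and in the third the values were -0.07 and, for 14 chromatin genes, -0.089. After cyclic loess the shift of the 75 genes was -0.043 and 28 of them were lowest in that array. Neuron markers, 5 of 7 measured, had a mean level of 10.19 in that array, at the lower end of the wild-type range of 10.19 to 10.44. The double knockout range was 10.12 to 10.50. The neuron markers did not move together. Against the other wild-type arrays Stmn2 (-0.46), Dcx (-0.207) and Tubb3 (-0.185, under a name out of place) were lower there, and Nefl (0.098) and Rbfox3 (0.042) higher. The 6 of 12 measured markers of hindbrain and spinal cord had a mean of 5.38, the highest of the wild-type range of 5.00 to 5.38. They did not move together either. Hoxc4 (0.537), Gbx2 (0.51), Hoxa4 (0.442) and Hoxc5 (0.133) were higher there, and Hoxa2 (-0.1) and Hoxa5 (-0.01) lower. The median level of these markers was 4.97, within the dimmest bin, where named genes also lay higher in that array. The double knockout range of that list was 4.96 to 5.08. That array was also the lowest wild-type array for the mean of the astrocyte (6.64, 3 of 4 measured), microglia (6.66, 4 of 4) and endothelium (8.24, 2 of 3) markers. The same held for Pdgfra (8.23), the only 1 of 4 oligodendrocyte lineage markers measured. For the mean of dividing cells (7.75, 4 of 10 measured) that array was the highest, although Top2a among them had its lowest wild-type value there (7.52). Ttr, the transthyretin gene of choroid plexus, spread from 5.91 to 11.49 in wild-type and from 6.19 to 11.59 in double knockout animals and read 7.53 in that array. The part of these cell types in the shift was not tested.

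**Figure D4:**
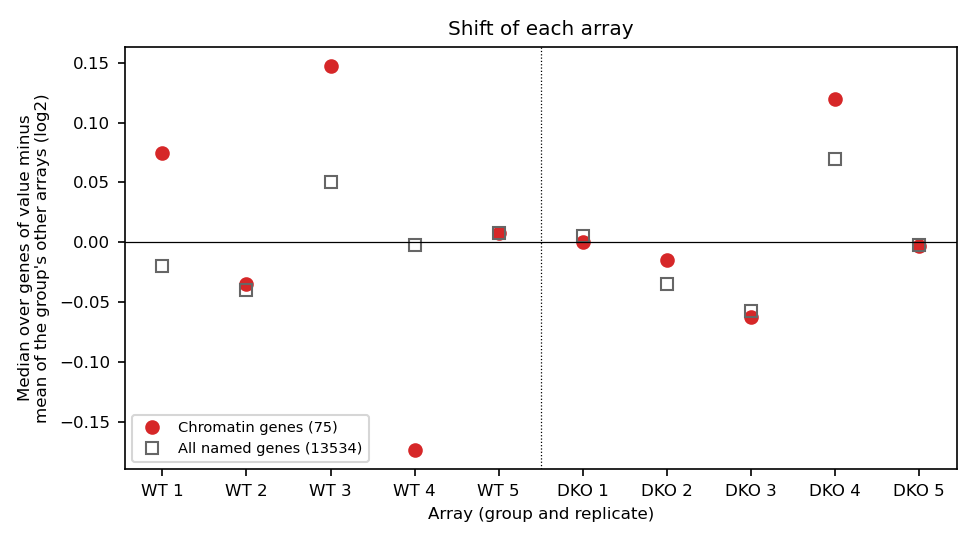
Median over genes of each array's value minus the mean of its group's other arrays (vertical axis, log2), for the 75 chromatin genes (filled) and all named genes (open). Wild-type replicate 4 is at -0.173 for chromatin genes and -0.002 for all named genes, and wild-type replicate 3 and double knockout replicate 4 are the highest, at 0.147 and 0.12.

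With the group means removed, the chromatin genes varied together. Their leading component held 47.7% of their variance over the 10 arrays, against 33.7% over all named genes. Of the 75 genes 53 lay in the brightest bin, so these percentages compare sets of unlike signal level. The sign of the component was set so that its loadings sum above 0, and 67 of the 75 genes had loadings above 0. The same share was not counted over all named genes. Arid4a, Kdm7a, Kdm3a, Smarca1 and Prmt8 had the highest loadings, at 0.322, 0.295, 0.255, 0.248 and 0.196. Kat2b and Arid1b ran the opposite way, at -0.311 and -0.164. The loading of Kat2b rests on a dim row, and its other row was lower in wild-type replicate 4 (-0.265). The component separated wild-type replicate 4, at -1.97, from wild-type replicate 3, at 1.55. The leading component of all named genes had its extremes at the same arrays, at -30.2 and 19.99. All genes of an array share its labelling and hybridisation, so this is a description of these arrays.

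**Figure D5:**
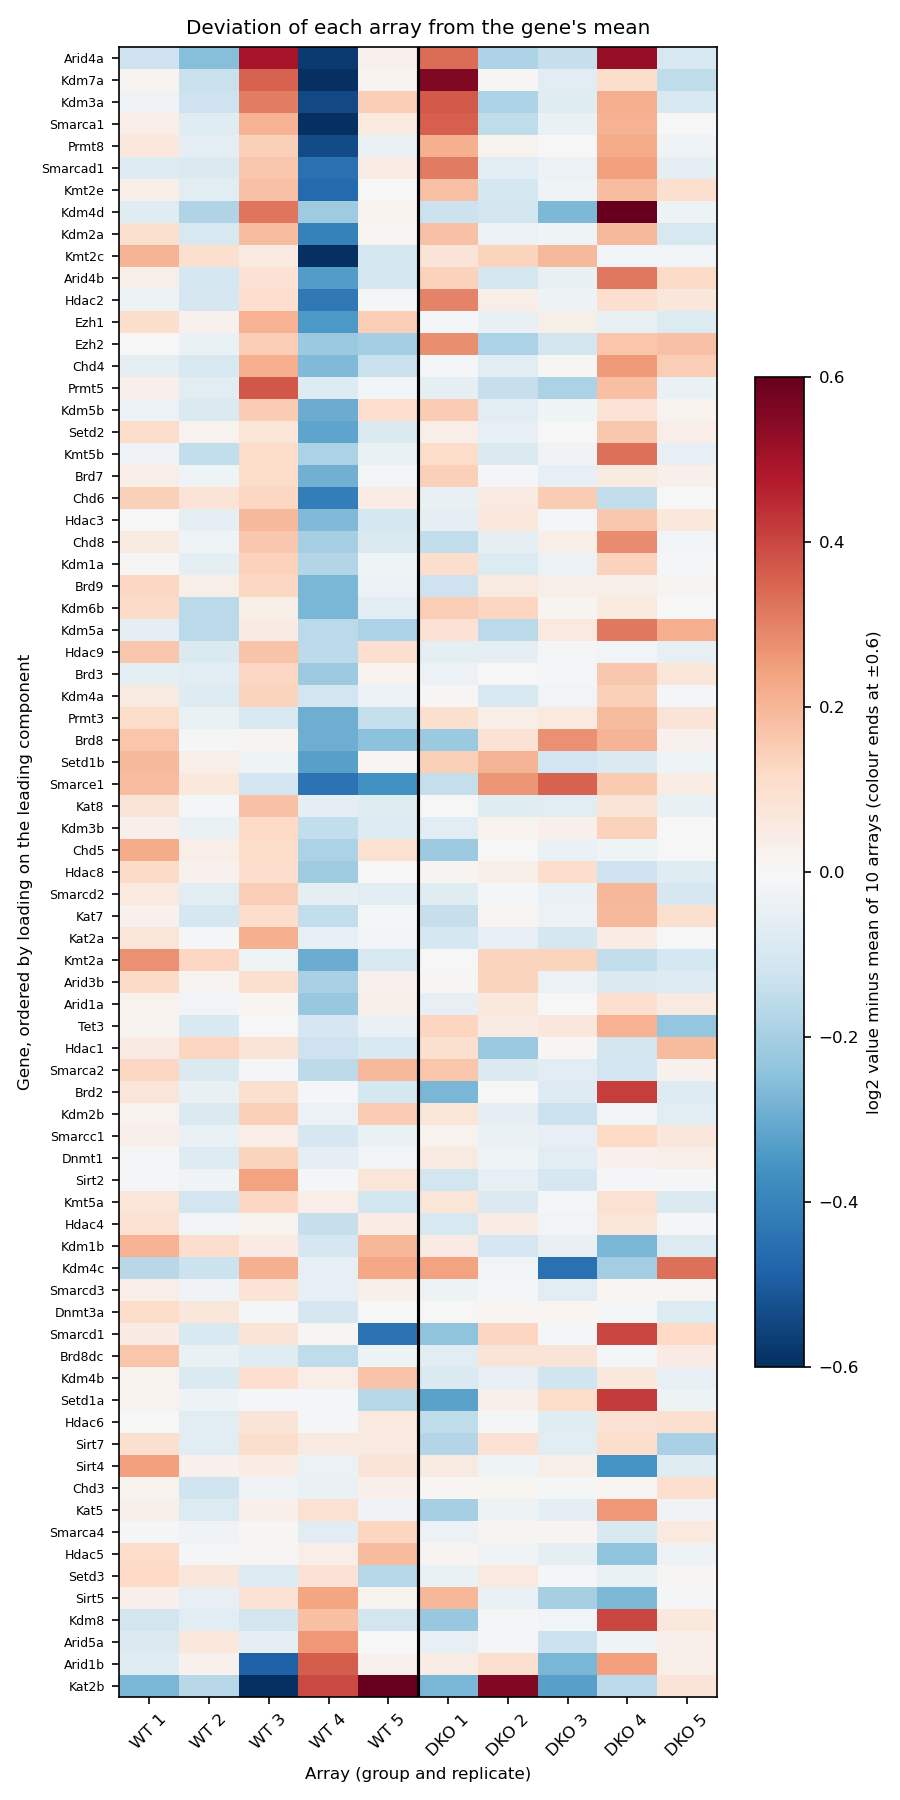
Deviation of each of the 10 arrays (columns) from the mean of each of the 75 chromatin genes (rows, ordered by loading on the leading component), in log2 units. Wild-type (WT) replicate 4 is low for most genes in the upper part and high for Kat2b and Arid1b at the bottom, and no such column divides wild-type from double knockout (DKO).

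Of the 75 genes 10 had several rows with a single symbol, 22 rows in all. In Hdac1, Kdm5b, Setd1a, Setd1b and Setd3 the rows had opposite signs. The rows of Setd1b were at 0.05, -0.08 and -0.33 from the brightest to the dimmest, and the dimmest was at 6.30 ± 0.20 in wild-type and 5.97 ± 0.14 in the double knockout (SD, n = 5 each), with an unadjusted p of 0.0211 in the fit over all probe sets and limma's adjusted p = 0.782. The second rows of Hdac1 (0.23) and Setd3 (0.16) carry a name out of place among their neighbours in identifier order, so that the gene they read is uncertain. The rows of Brd2 were at -0.004 and, in the dimmer row, -0.30 (limma's adjusted p = 0.844), which was -0.13 without wild-type replicate 4. The rows of Kdm7a were at 0.18 and 0.20, those of Tet3 at 0.09 and 0.06, and both rows of Chd8 at 0.04.

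Other genes, listed by role as partners or readers or as enzymes outside the name rule, gave no call either. Of 131 genes in 9 lists 83 were measured. Of these 0 passed, against 0.0148% of all named genes, and 0 had an unadjusted p under 0.05, against 2.14%. Of the 83 genes 48 lay above 0 and 34 below, and the median was 0.028, or -0.010 without wild-type replicate 4. BAF partners had 4 of 11 above 0 (median -0.05). Actl6a and Actl6b, the actin-related subunits that are exchanged when progenitors become neurons, were at 0.14 (interval -0.14 to 0.43) and 0.05 (interval -0.14 to 0.25). Bcl7a was at -0.12, and its sign turned when its rows were averaged. Polycomb partners had 7 of 12 above 0 (median 0.044), with Mtf2, an accessory subunit, at 0.22 and the core subunit Eed at -0.19. Rbbp4 of this list ranged from 9.31 to 9.42 in wild-type and from 9.44 to 9.48 in the double knockout. Its groups thus did not overlap, as in 0.968% of all named genes. The difference was 0.09 (limma's adjusted p = 0.878, exact permutation p = 0.00794 before adjustment, the smallest possible).

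Partners in NuRD, CoREST, Sin3 and NCoR complexes had 9 of 14 above 0 (median 0.026), with the paralogs Gatad2a at -0.16 and Gatad2b at 0.15. Histone methyltransferases outside the name rule had 6 of 9 above 0 (median 0.032). Among them Nsd1 was at 0.31, and 0.14 without wild-type replicate 4, under a name out of place among its neighbours, and Smyd1 at -0.11. The COMPASS core had 3 of 6 above 0 (median -0.02), with Cxxc1 at -0.12 and Dpy30 at -0.14. Other acetyltransferases had 6 of 8 above 0 (median 0.04), with Hat1 at 0.26 and Ncoa3 at -0.46, which was -0.19 without wild-type replicate 4.

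Readers and partners of DNA methylation had 2 of 5 above 0 (median -0.008), with Uhrf1, which guides Dnmt1 to replicated DNA, at -0.11 and Uhrf2 at 0.16. Partners in ISWI, INO80 and other remodelers had 8 of 13 above 0 (median 0.05), with Cecr2 at 0.23 and Atrx at 0.17. The list of demethylases outside the name rule had 3 of 5 above 0 (median 0.028), with Jmjd6 at -0.17. These counts include Riok1, at 0.22, which is a kinase and was listed there although it is no demethylase.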

How the data were processed

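Total RNA from the forebrain of 10 newborn mice was measured on mouse exon arrays. The deposited values are log2 expression values, made by the authors with RMA. The submitters' processing notes name Affymetrix Expression Console and build mm8. RMA corrects background, brings arrays to a common distribution and summarises probes, so broad shifts between arrays are partly removed. Their versions and the summary level of the probe sets were not given in the sources used here. Precision is limited by the number of arrays. The table held 65529 probe sets, of which 15419 carried 1 symbol in the platform annotation, 961 several and 49149 none, and no column belonged to another sample.

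Groups were compared with limma 3.58.1 (lmFit, then eBayes; R 4.3.3), without filter or block. Two-sided p-values were adjusted by Benjamini and Hochberg's method across the whole table, at a threshold of 0.05, and 95% intervals come from the same fit. Exact permutation tests were two-sided over 252 splits, with a smallest possible p of 0.00794. The fit was tested on simulated data. A name is called out of place where the gene's chromosome in the RefSeq table (GRCm38.p6) differs from the most frequent chromosome among the 20 named probe sets on each side in identifier order. Equal lowest values counted for the lower replicate number.

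Genes named are the lowest and highest of each family, the 5 with the largest residual SD, those with rows of opposite sign, those with a known role in neural cells, and from each partner list the 2 with the smallest p. Other genes named were picked after their values were seen. Each animal is a separate sample, and replicate numbers follow the order of deposit. Members, lists and alternatives were chosen with earlier results of these data known. Alternatives were other normalizations, filters, variance settings, array weights, a block of animals with neighbouring numbers, the level of Xist as covariate, averaged rows, updated symbols, a threshold of 0.1, an unmoderated test and leaving out each array.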

Additional observations from a re-analysis of the deposited data

Results flagged for a closer look

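An isolated animal was looked for in 190 groups of 5 values. The measure was the distance from the extreme value to its neighbour as a ratio of the whole range, with a critical value of 0.71. Chance passes about 1 in 20 such groups. Of 150 groups of chromatin genes 11 passed, 3 of them through wild-type replicate 4. That array was low for Arid1a (9.25, ratio 0.808) and Chd6 (8.29, ratio 0.821) and high for Kdm8 (6.84, ratio 0.862). Chd6 and Kdm8, like Brd9 below, were named after their values were seen.

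Wild-type replicate 3 was high for Prmt5 (11.02, ratio 0.756) and low for the targeted gene Elavl3 (10.52, ratio 0.736), and wild-type replicate 5 was low for Setd1a (8.38, ratio 0.737). Double knockout replicate 1 was low for Brd9 (8.80, ratio 0.778) and Chd5 (9.62, ratio 0.818). It was high for the partner gene Uhrf2 (8.92, ratio 0.857). Double knockout replicate 4 was low for Hdac5 (8.64, ratio 0.731) and high for Kdm4d (6.07, ratio 0.745) and the listed kinase gene Riok1 (8.04, ratio 0.733). Double knockout replicate 5 was high for Chd3 (10.72, ratio 0.818) and low for Dnmt3a (9.22, ratio 0.778).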

How the results depend on the processing

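The count of chromatin genes past the threshold was 0 under every alternative run. The count with groups that do not overlap was 2 after quantile normalization (Kat2a lower, Prmt3 higher), 1 after cyclic loess (Kat2a) and 0 to 1 when 1 array was left out. The shares of all named genes were 2.23%, 1.96% and 1.44% to 2.81%. It was Prmt3 without wild-type replicate 1, Chd5 without wild-type replicate 4, and Hdac5, Kdm5a and Tet3 without double knockout replicates 1, 2 and 5. The shift of wild-type replicate 4 was -0.285 after median centring and -0.043 after cyclic loess, where 28 genes were lowest in that array. Elavl4 kept its direction and lost its call with a replicate block of animals with neighbouring numbers (-1.32, adjusted p = 0.0982) and with Xist as a covariate (-1.3, adjusted p = 0.0522). Over the omissions of 1 array it ran from -1.38 to -1.22, with adjusted p from 0.0275 to 0.0761. The replicate block changed no call among chromatin genes. Deviations of the paired animals correlated at -0.0684 to 0.355 over named genes. Among the 5 arrays of the other genotype, 7 of 10 arrays correlated best with their own partner, so the numbers are only a hint of pairs.

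Of 55 named chromatin genes 36 kept their sign under every alternative. The sign turned for Dnmt1, Kdm4a and Kmt2a after quantile normalization (-0.014, -0.012 and -0.026) and cyclic loess (-0.025, -0.019 and -0.024). It turned for Kat2b, Kmt2a and Kmt5a with array weights (0.011, -0.042 and 0.002) and for Hdac1 with the Xist covariate (0.019). With rows averaged it turned for Hdac1 (0.105), Kdm5b (-0.015), Setd1b (-0.123) and Setd3 (0.074). Outside the 55 genes it turned there for the partner gene Bcl7a (0.066). The causes were not tested. Omissions of 1 array gave Arid1b -0.056 to 0.156, Brd2 -0.108 to 0.064, Chd8 -0.025 to 0.086, Dnmt1 -0.01 to 0.043, Hdac1 -0.065 to 0.038, Hdac4 -0.036 to 0.022, Kat2b -0.21 to 0.14, Kat5 -0.088 to 0.028, Kdm3a -0.032 to 0.18 and Kdm4a -0.02 to 0.05. They gave Kdm4d -0.111 to 0.136, Kmt2a -0.065 to 0.078, Kmt5a -0.036 to 0.021, Setd1a -0.013 to 0.172, Setd1b -0.03 to 0.1, Setd3 -0.054 to 0.018, Smarca2 -0.075 to 0.015 and Smarca4 -0.032 to 0.016.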

Other observations

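Double knockout replicate 4 was the highest array of its group for 37 of the 75 chromatin genes (49.3%, against 38.4% of all named genes), and wild-type replicate 3 was the highest of its group for 39 (52.0%, against 33.3%). Their animal numbers lie next to each other, and over the 75 genes their deviations from the group means correlated at 0.374. The same value was 0.547 for wild-type replicate 2 with double knockout replicate 3 and -0.0343 for wild-type replicate 1 with double knockout replicate 2. Smarcd1 and Setd1a were highest in double knockout replicate 4, at 9.97 and 8.97, and Arid4a was highest there and in wild-type replicate 3, at 8.94 and 8.91.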
